A study of Mus musculus with 20 samples.

Results

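The 10 genes described here, Adipoq, Fabp4, Plin1, Cfd, Cidec, Lep, Retn, Car3, Scd1 and Pparg, are known for their high expression in fat cells and were followed in bulk RNA from mouse hindlimb muscle. They were chosen by their symbols, and each stood on 1 row of a table of 21844 genes. All mice had the genotype Cre+:iMSBmal1 fl/fl, so that the controls also carried the floxed Bmal1 gene (Arntl in the files) and an inducible Cre recombinase specific to skeletal muscle. The 4 groups of 5 libraries were vehicle without exercise, iMSBmal1KO without exercise, vehicle with exercise training and iMSBmal1KO with exercise training, where training was 6 weeks of daily treadmill running. The labels name both the gastrocnemius and the tibialis anterior, and collection at both 48 and 47 hours. Age and sex were not given in the sources used here. The labels do not say that the libraries came from separate animals, so p-values measure the spread between these samples, which may be technical.

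Library totals ranged from 10610333 to 19153527 estimated counts. Of 190 pairs of libraries, 2 pairs of knockout trained libraries (1 with 4, and 3 with 5) differed by about the sampling noise, and each pair was counted as 1 sample, which left 18 samples and 3 in that group. Arntl was higher, not lower, in the libraries labelled knockout: the sedentary ones ranged from 10.96 to 18.87 CPM (counts scaled by the library total), against 5.68 to 7.93 CPM in sedentary vehicle. Whether counted reads include the deleted part of the gene is not given in the sources used here, so which mice lacked Bmal1 rests on the labels alone. Vehicle trained library 2 stood apart, with 132.3 CPM of Arntl where the other 4 of its group averaged 6.45 CPM, and results that rest on it are given with and without it. Of the markers of muscle, 8 fast fibre genes such as Acta1 and Ckm summed to 53470 to 93620 CPM. The 9 adipocyte markers summed to 470.2 to 1422 CPM, and all were detected in all libraries except Lep, which was at 0 in 1. Much of this sum was the markers Plin4 and Fabp4. They averaged 322.2 and 237.5 CPM in sedentary vehicle, where the median sum was 655.3 CPM.

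White fat cells store triglyceride in a large lipid droplet and secrete hormones, and small numbers of them lie between muscle fibres and along the muscle's fascia. Their identity depends on the nuclear receptor PPARG, which binds DNA with RXR and, together with C/EBP factors, switches on genes of lipid storage. In bulk muscle, more fat cells and more RNA per fat cell cannot be told apart. Several of these genes are also active in other cells: Car3 encodes carbonic anhydrase 3, a cytosolic enzyme abundant in slow muscle fibres as well as in fat, and Fabp4, a fatty acid carrier, is also made by endothelial cells and macrophages.

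Set per kilobase of annotated exon, Car3 was the most abundant of the 10, at a median of 268.3 CPM per kb over the 18 samples. Cfd (62.5 CPM per kb), Fabp4 (57.1) and Scd1 (37.0) followed. Adipoq (10.6), Cidec (5.08), Retn (3.90), Plin1 (1.68), Lep (1.26) and Pparg (1.20) were lower.

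The promoters of 7 of the 10 genes were found in the RefSeq table of build GRCm38.p6, all except Fabp4, Car3 and Scd1. Those of 3 genes that varied together between samples, as described further on, are shown for the 250 bases before the start, 5′ to 3′ on the gene's strand, with matches to searched motifs in capitals. Adipoq lies on the plus strand at chr16:23146286-23146535, Plin1 on the minus strand at chr7:79732777-79733026 and Lep on the plus strand at chr6:29059971-29060220.
Adipoq: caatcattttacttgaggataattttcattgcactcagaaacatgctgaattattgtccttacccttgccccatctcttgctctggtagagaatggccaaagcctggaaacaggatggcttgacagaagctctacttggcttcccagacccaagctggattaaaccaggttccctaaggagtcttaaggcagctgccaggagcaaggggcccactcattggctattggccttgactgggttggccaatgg
Plin1: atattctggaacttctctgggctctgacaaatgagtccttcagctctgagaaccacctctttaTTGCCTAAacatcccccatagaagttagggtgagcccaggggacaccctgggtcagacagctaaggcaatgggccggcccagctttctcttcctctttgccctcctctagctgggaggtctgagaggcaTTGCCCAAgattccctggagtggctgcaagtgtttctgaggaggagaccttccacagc
Lep: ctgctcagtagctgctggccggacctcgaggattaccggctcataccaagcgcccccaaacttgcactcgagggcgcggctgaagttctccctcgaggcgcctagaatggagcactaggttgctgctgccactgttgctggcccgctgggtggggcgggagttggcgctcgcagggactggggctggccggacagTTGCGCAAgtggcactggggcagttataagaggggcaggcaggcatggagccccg
Both strands were searched for the C/EBP motif TTGCNNAA, the hexamer AGGTCA of nuclear receptors, its spaced repeat AGGTCANAGGTCA bound by PPARG with RXR (which contains the hexamer), and the E-box CACGTG bound by BMAL1 with CLOCK. The C/EBP motif matched at positions -187 and -58 before the start of Plin1 and at -55 before that of Lep, and not in Adipoq. It also matched before the second of the Cidec starts and the third of the Pparg starts, and it is present in 9.56% of all 32851 promoters of this length. The hexamer matched before the first and the second Pparg start, against 14.0% of all promoters. Neither the spaced repeat (0.033% of all promoters) nor the E-box (6.02%) matched in the windows of the 7 genes.

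The secreted products varied widely between samples of the same group. Adipoq (ENSMUSG00000022878) encodes adiponectin, a hormone that raises insulin sensitivity. In sedentary vehicle muscle, Adipoq stood at 3.25, 14.83, 21.72, 25.34 and 5.13 CPM. In sedentary muscle labelled knockout, Adipoq stood at 14.44, 20.33, 9.32, 9.65 and 11.99 CPM. These groups overlapped fully, with the knockout libraries inside the range of the vehicle ones. In trained vehicle muscle, Adipoq stood at 83.78, 3.63, 7.20, 38.49 and 6.35 CPM. In trained muscle labelled knockout, Adipoq stood at 17.99, 38.76, 24.39, 15.65 and 24.54 CPM. Libraries 1 and 4 of the trained vehicle group were high and the other 3 were low, and all trained knockout libraries lay above those 3.

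Cfd (ENSMUSG00000061780) encodes adipsin, a serine protease of the alternative complement pathway. In sedentary vehicle muscle, Cfd stood at 12.76, 64.32, 104.0, 75.19 and 25.35 CPM. In sedentary muscle labelled knockout it stood at 52.40, 62.86, 22.39, 30.16 and 47.76 CPM. Cfd again overlapped fully between these groups. In trained vehicle muscle, Cfd stood at 368.7, 33.43, 25.84, 156.8 and 34.77 CPM. In trained muscle labelled knockout it stood at 73.29, 250.3, 125.9, 72.76 and 113.8 CPM. All trained knockout libraries lay above all sedentary knockout ones, and the trained vehicle group split as it did for Adipoq.

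Retn (ENSMUSG00000012705), which encodes the hormone resistin, ranged from 1.55 CPM in sedentary vehicle library 1 to 36.75 CPM in trained vehicle library 1. Its trained knockout libraries, from 8.41 to 21.64 CPM, lay above the sedentary knockout ones, from 2.04 to 7.33 CPM. Lep (ENSMUSG00000059201), which encodes leptin, the hormone that reports fat stores to the brain, ranged from 0 to 19.44 CPM. Its 0 counts in trained vehicle library 2 allow up to 0.198 CPM by counting error alone. Lep was highest in sedentary vehicle library 4, whereas trained vehicle library 1 was highest for the other 9 genes.

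The lipid droplet proteins followed the same libraries. Plin1 (ENSMUSG00000030546), whose product coats the droplet and gates lipolysis, ranged from 0.661 CPM in trained vehicle library 2 to 40.49 CPM in trained vehicle library 1. Its trained knockout libraries ranged from 13.19 to 17.35 CPM, all above the sedentary knockout range of 3.21 to 10.43 CPM. Cidec (ENSMUSG00000030278), whose product enlarges droplets by fusing them, ranged from 2.17 to 49.69 CPM.

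Of the lipid enzymes and carriers, Scd1 (ENSMUSG00000037071), the desaturase that makes monounsaturated fatty acids, varied most. In sedentary vehicle muscle, Scd1 stood at 64.43, 182.5, 216.1, 378.6 and 72.52 CPM. In trained vehicle muscle it stood at 935.3, 107.7, 158.9, 574.5 and 146.1 CPM. Libraries 1 and 4 of the trained vehicle group were thus high for Scd1 too. Its sedentary knockout libraries spanned 121.5 to 218.3 CPM and its trained knockout samples, with the near-identical pairs averaged, 221.7 to 358.7 CPM. These did not overlap, but by library they did, since knockout trained library 5 stood at 216.7 CPM, below the 218.3 CPM of sedentary knockout library 2. Fabp4 (ENSMUSG00000062515) spanned 128.0 to 495.9 CPM, a 3.87-fold range. Pparg (ENSMUSG00000000440) itself was low, at 1.85 to 9.06 CPM, a 4.90-fold range, and 9.06 CPM was again in trained vehicle library 1; a gene antisense to Pparg overlaps it in the annotation, and reads of the pair cannot be told apart without strand.

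**Figure D1:**
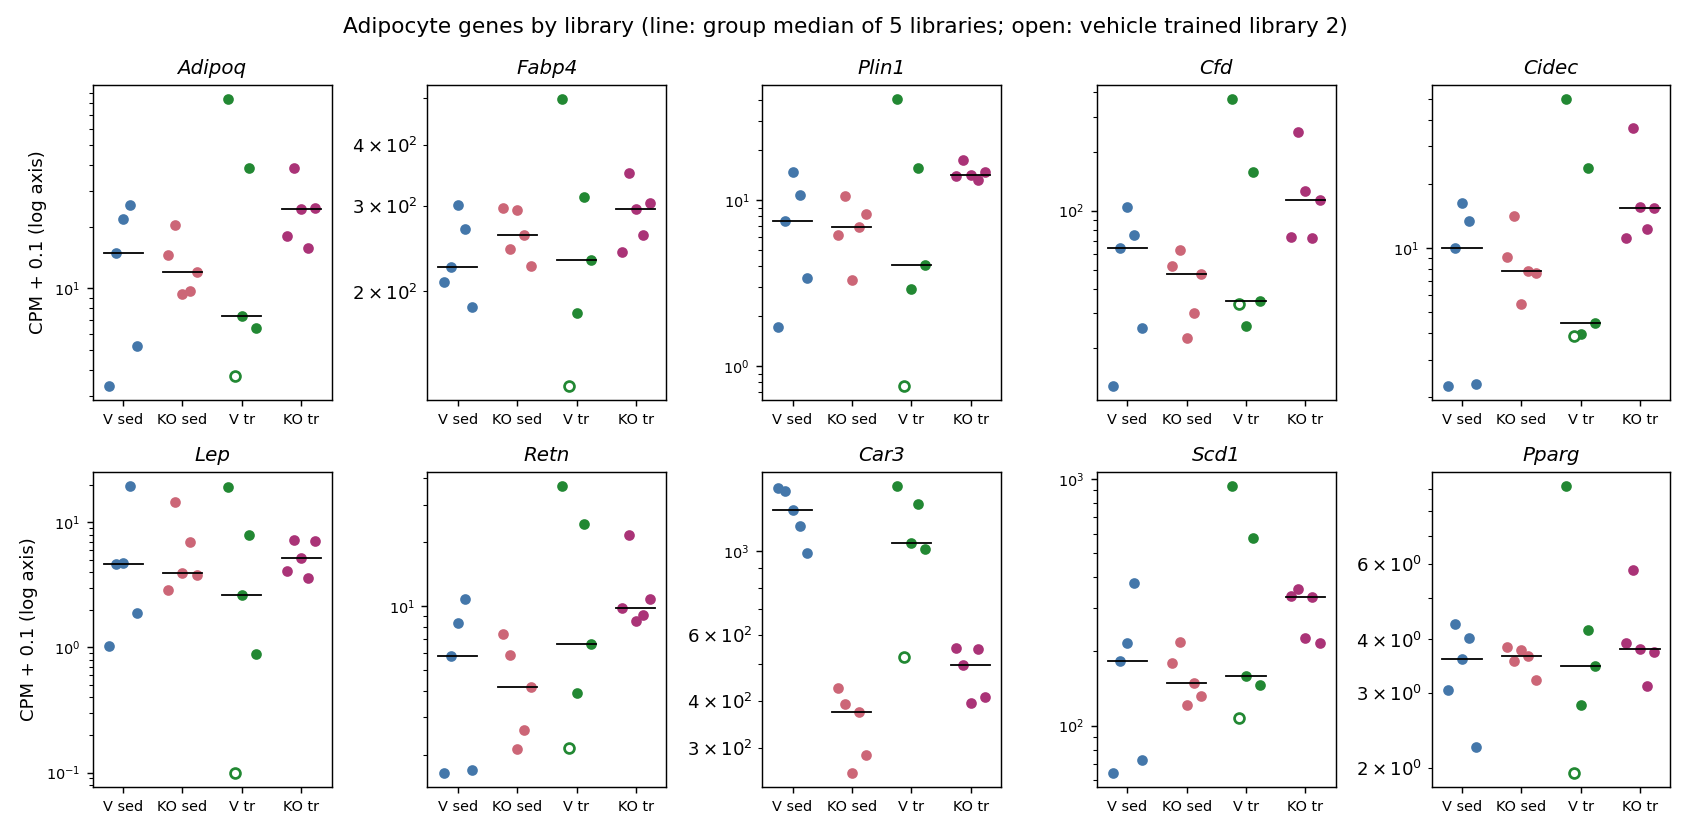
CPM + 0.1 (log axis) of the 10 genes in each of the 20 libraries by group (V, vehicle; KO, labelled knockout; sed, sedentary; tr, trained). Lines are group medians, and open circles are trained vehicle library 2. Trained vehicle libraries 1 and 4 sit highest of their group for all 10 genes, and Car3 also separates the sedentary vehicle libraries (987 to 1472 CPM) from the sedentary knockout ones (258 to 432 CPM).

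The plot of CPM by library shows that the same samples were high or low for most of these genes, and this was measured as the correlation of deviations from the group mean. Over the 17 samples without trained vehicle library 2, on a log2(CPM + 1) scale, 8 of the 9 other genes tracked Adipoq with adjusted p under 0.05 (permutation test within groups, 100000 resamples, 2-sided, Benjamini-Hochberg over 9 tests). Cidec stood closest, with Pearson's r of 0.98 and Spearman's rho of 0.96 (permutation p = 2e-05 for each, adjusted 9e-05). Cfd had r of 0.97 and rho of 0.96 (permutation p = 1e-05 for each, the smallest the resamples can give, adjusted 9e-05). The others were Scd1 (r = 0.95), Plin1 (0.95), Retn (0.95), Lep (0.88), Fabp4 (0.83) and Pparg (0.81), with rho from 0.76 to 0.96 and adjusted permutation p for r from 0.000112 to 0.00402.

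Car3 did not pass this test over the 17 samples. It had r of 0.42 and rho of 0.32 with Adipoq (permutation p = 0.12 and 0.235, adjusted 0.12 and 0.235). This call turned on 1 sample: without sedentary vehicle library 1, Car3 had r of 0.61 (adjusted permutation p = 0.0237) and all 9 genes passed. With trained vehicle library 2 included, its r was 0.58 (adjusted permutation p = 0.0589). Without the 2 samples farthest from the median of Adipoq, trained vehicle 1 and sedentary vehicle 1, r was 0.97 for Cidec, 0.95 for Cfd, 0.92 for Scd1, 0.90 for Plin1, 0.94 for Retn, 0.79 for Lep, 0.76 for Fabp4, 0.72 for Pparg and 0.51 for Car3. Among the 36 pairs of the 9 genes other than Car3, r ranged from 0.63 for Fabp4 with Lep to 0.98, with a median of 0.86. The 9 pairs with Car3 ranged from 0.30 to 0.52. As a background, the median r with Adipoq over the 14349 other tested genes was 0.11, and 2.31% of them exceeded 0.8.

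**Figure D2:**
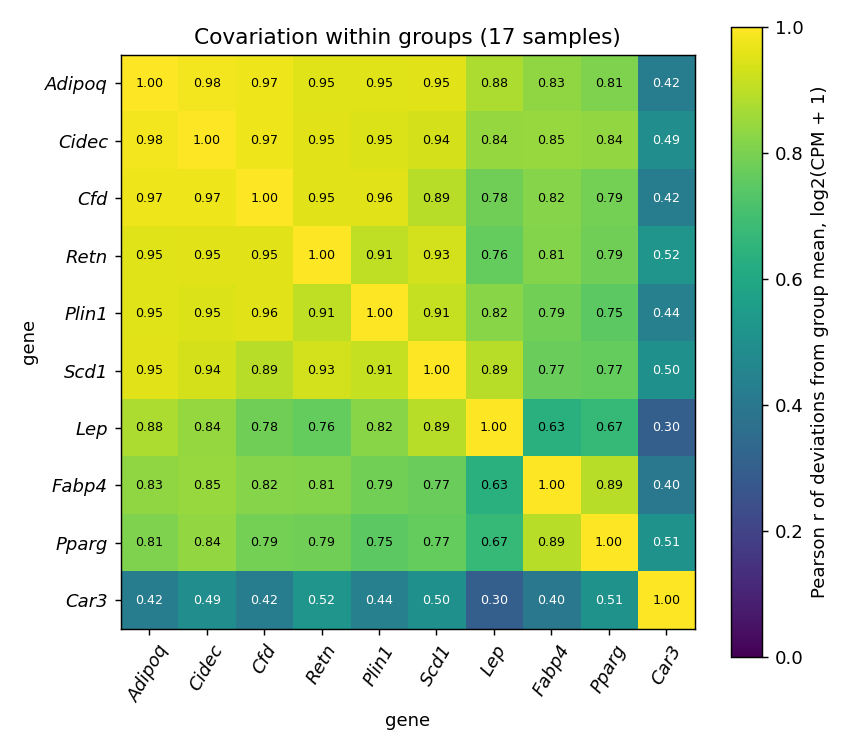
Pearson's r between each pair of the 10 genes, from deviations of log2(CPM + 1) from the group mean over 17 samples (without trained vehicle library 2). Colour runs from 0 to 1; the block of Adipoq, Cidec, Cfd, Retn, Plin1 and Scd1 is brightest, and the row of Car3 stays between 0.30 and 0.52.

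The genes outside the 10 whose deviations were most like those of Adipoq, over the same 17 samples, were Prkar2b (r = 0.97), Slc1a5 (0.96), Mrap (0.96), Lgals12 (0.96), Trf (0.96), Acp5 (0.95), Rbp4 (0.95), Cebpa (0.95), Ifi27l2a (0.95) and Fads3 (0.95). Cebpa encodes the C/EBP factor that works with PPARG in fat cells, Mrap an accessory protein of the ACTH receptor, Lgals12 a galectin of lipid droplets, Rbp4 the plasma retinol carrier and Trf transferrin. Over all 18 samples, 5 of these, Prkar2b, Lgals12, Slc1a5, Ifi27l2a and Rbp4, again headed the list. Markers of other cells moved with Adipoq as well. The median r with Adipoq was 0.79 over 8 macrophage markers and 0.74 over 8 markers of fibro-adipogenic progenitors, against 0.79 over 19 other adipocyte genes, 0.57 for blood, 0.48 for Schwann cell, 0.42 for fast fibre, 0.25 for slow fibre, -0.07 for endothelial and -0.18 for satellite cell markers. Not all genes of the adipocyte lists did so. Of the 2 adipocyte markers outside the 10, Lipe had r of 0.79 and Plin4 -0.16. Gpd1 of the other adipocyte genes had -0.36. Which cells made Plin4 and Gpd1 here was not tested. The summed macrophage markers spanned 58.01 to 239.0 CPM in sedentary vehicle, 92.8 to 258.4 in sedentary knockout, 163.4 to 416.6 in trained vehicle and 57.11 to 345.5 CPM in trained knockout muscle, and none of the macrophage markers was at 0 in any library. The summed progenitor markers spanned 1112 to 2412 CPM, 1384 to 2546 CPM, 1804 to 3177 CPM and 1038 to 2174 CPM in the same order of groups, with none at 0. The part of these cells in the shared variation was not tested.

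The size of this variation set most of the 10 apart from other genes. The standard deviation within groups of log2(CPM + 1), over the 17 samples, was 1.19 for Cfd, 1.13 for Lep, 1.11 for Cidec, 1.11 for Adipoq, 1.01 for Plin1, 0.98 for Retn and 0.91 for Scd1. For each of these 7 genes, at least 99.8% of the 14359 tested genes had a smaller value, and the median over all tested genes was 0.21. Pparg (0.37), Fabp4 (0.36) and Car3 (0.27) were more even, with 88.9%, 87.8% and 68.9% of genes below them. The sum of Adipoq, Plin1, Cfd, Cidec, Lep and Retn ran from 22.3 CPM in sedentary vehicle 1 to 598.5 CPM in trained vehicle 1, and the ratio of the highest to the lowest library was 25.8 for Adipoq and 61.3 for Plin1 over all 20 libraries, and 25.8 and 24.9 without trained vehicle library 2.

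**Figure D3:**
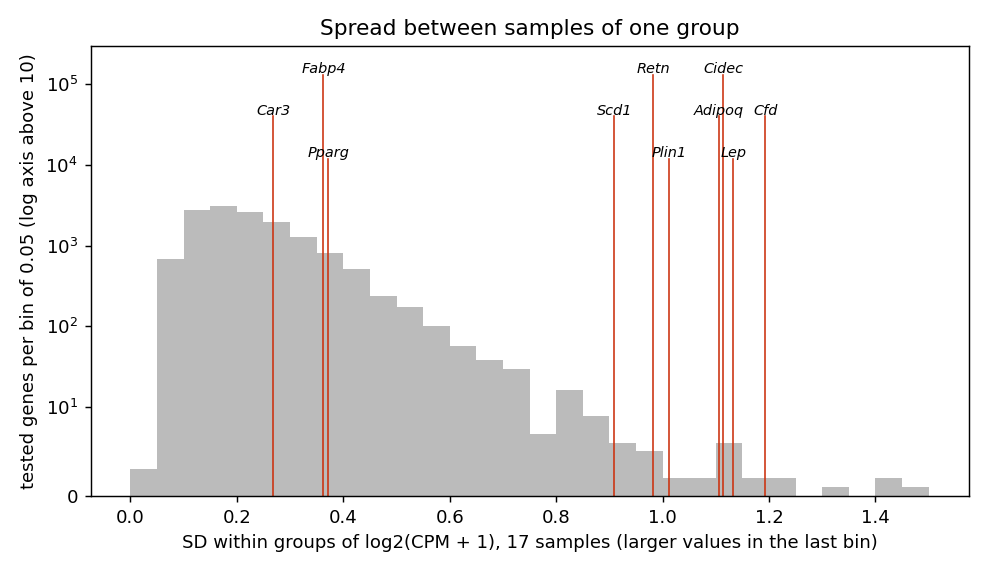
Histogram of the standard deviation within groups of log2(CPM + 1) for the 14359 tested genes (17 samples; vertical axis linear to 10 and log above). Red lines mark the 10 genes: 7 lie between 0.91 and 1.19, far to the right of the median of 0.21, and Car3, Fabp4 and Pparg lie between 0.27 and 0.37.

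The first comparison asked how muscle labelled Bmal1 knockout differed from vehicle muscle in sedentary mice. Car3 was the only one of the 10 with an adjusted p under 0.05. In sedentary vehicle muscle, Car3 (ENSMUSG00000027559) stood at 1472, 1443, 1284, 1166 and 987 CPM. In sedentary muscle labelled knockout, Car3 stood at 432, 393, 258, 373 and 288 CPM. The groups did not overlap, and the mean was 1270 ± 201 CPM (SD, n = 5) in vehicle and 349 ± 73.0 CPM (SD, n = 5) in knockout libraries. Car3 was 3.78-fold lower, a log2 change of -1.92 (SE 0.21, 95% interval -2.36 to -1.48), with an adjusted p of 2.19e-05 by edgeR's quasi-likelihood test. It was 1 of 10 genes called, where 2.33% of all tested genes were, and 1 of 10 whose groups did not overlap, where 9.39% of all genes did not.

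The other 9 genes lay between log2 changes of -0.42 for Cfd (95% interval -1.81 to 0.97) and 0.10 for Fabp4 (-0.41 to 0.61), and none passed the test. Adipoq had a log2 change of -0.13 (95% interval -1.57 to 1.30), and the spread between samples left changes within that interval possible. The median over the 10 genes was -0.15, against 0.01 over all genes. Slow fibre markers mark fibres that also make Car3. Over 8 genes they summed to 929.7 to 1661 CPM in sedentary vehicle and 630.3 to 1451 CPM in sedentary knockout muscle, an overlapping range. The median log2 change of these 8 genes was -0.27, and none was called. Their part in the Car3 difference was not tested.

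In trained muscle Car3 was again lower in the libraries labelled knockout. In trained vehicle muscle, Car3 stood at 1487, 523, 1048, 1330 and 1014 CPM. In trained muscle labelled knockout it stood at 553, 499, 396, 548 and 410 CPM. Only trained vehicle library 2, at 523 CPM, reached into the knockout range. The log2 change was -1.11 (SE 0.24, 95% interval -1.62 to -0.60), or 2.16-fold lower, with an edgeR adjusted p of 0.0159, and 3.29% of all genes were called. None of the 10 genes had groups that did not overlap, against 7.97% of all genes.

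Without trained vehicle library 2, the Car3 log2 change in trained muscle was -1.27 (95% interval -1.64 to -0.90, edgeR adjusted p = 0.000138) and its groups no longer overlapped, as for 14.5% of all genes. In that fit 8.66% of genes were called in trained and 6.98% in sedentary muscle, and Car3 was still 1 of 10 in each. The call in trained muscle ended without knockout trained sample 2 (-1.15, edgeR adjusted p = 0.0512), without the pair 3 and 5 (-1.02, 0.116), and in a fit of these 2 groups alone (-1.11, 0.287). The other 9 genes ranged from -0.26 for Scd1 (95% interval -1.52 to 1.00) to 0.40 for Cidec (-1.19 to 2.00) in trained muscle, and both signs depended on trained vehicle library 1 or knockout trained sample 2, without which Scd1 stood at 0.38 and Cidec at -0.25. Slow fibre markers summed to 423.9 to 1364 CPM in trained vehicle (median 608.2) and 978.2 to 1326 CPM in trained knockout muscle (median 1146). Over the 18 samples their median log2 change was 0.88, opposite in sign to that of Car3, with none called. It was 0.82 without trained vehicle library 2. The part of slow fibres in the Car3 difference was not tested here either. The median over the 10 was 0.06, against -0.03 over all genes, with 7 of 10 positive. It was -0.17 without trained vehicle library 2, with 4 of 10 positive.

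Training was compared with the sedentary state within each genotype label, and none of the 10 genes passed the test. In vehicle muscle, 8 of the 10 had a positive log2 change, with a median of 0.87 against 0.03 over all genes, and the 9 other than Car3 ranged from -0.03 to 1.41. The highest were Retn at 1.41 (95% interval 0.03 to 2.79, edgeR adjusted p = 0.325), Cfd at 1.16 (edgeR adjusted p = 0.394), Scd1 at 1.11 (0.327) and Adipoq at 1.01 (-0.42 to 2.44, adjusted p = 0.455). These values depended on single libraries. Without trained vehicle library 1, Retn stood at 0.73, Cfd at 0.17, Scd1 at 0.46 and Adipoq at -0.0024. Without trained vehicle library 2, Retn stood at 1.68, Cfd at 1.40, Scd1 at 1.35 and Adipoq at 1.28 (95% interval 0.0065 to 2.56). In that fit 9 of 10 genes were positive, and 4 had an unadjusted edgeR p under 0.05, with none called. Over all genes in the same fit, 1869 of 14359 had an unadjusted edgeR p under 0.05, also with none called. Car3 stood at -0.20 (95% interval -0.62 to 0.22, edgeR adjusted p = 0.605) over the 18 samples. Without trained vehicle library 2 it stood at -0.03 (-0.34 to 0.28). Over the 18 samples edgeR called 0% of all genes, or 0 of 14359, and DESeq2 called 0 genes. By edgeR 2186 genes had an unadjusted p under 0.05 (15.2%), which held for 2 of the 10 genes.

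In muscle labelled knockout, all 10 had a positive log2 change with training, with a median of 1.12 against -0.02 over all genes. The 9 other than Car3 ranged from 0.0039 for Lep (95% interval -2.10 to 2.10), which was close to no change, to 1.94 for Cfd. Most of the 10 varied together between samples, so their signs were not separate results. Groups did not overlap for 4 of the 10, Plin1, Cfd, Retn and Scd1, where 11.9% of all genes did not, and these 4 genes varied together. For Scd1 this held only with the near-identical libraries averaged. Cfd stood at 1.94 (95% interval 0.38 to 3.50, edgeR adjusted p = 0.380), Retn at 1.76 (0.21 to 3.32, adjusted p = 0.437), Adipoq at 1.18 (adjusted p = 0.710) and Scd1 at 1.07 (adjusted p = 0.611). Car3 was 1.53-fold higher, at 0.61 (95% interval 0.13 to 1.09, edgeR adjusted p = 0.367), with means of 349 ± 73.0 CPM (SD, n = 5) and 484 ± 75.0 CPM (SD, n = 3). edgeR called 0 of 14359 genes, with 1394 at an unadjusted p under 0.05 (9.71%), which held for 3 of the 10, and DESeq2 called 173 genes but 0 of the 10. Without trained vehicle library 2, 121 genes were called and Car3 reached an edgeR adjusted p of 0.0624.

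The difference between the training effects, or equally between the knockout effects, was tested as an interaction. Car3 stood at 0.81 (95% interval 0.17 to 1.45, edgeR adjusted p = 0.647), which did not pass. edgeR called 0 of 14359 genes, with 1076 at an unadjusted p under 0.05 (7.49%), which held for 1 of the 10, and DESeq2 called 29 genes but 0 of the 10. The other 9 ranged from -0.04 to 0.78, and the median over the 10 was 0.26 against -0.02 over all genes, with 9 of 10 positive. The median was 0.01 without trained vehicle library 2, the other 9 ranged from -0.29 to 0.55, and 5 of 10 were positive. Car3 stood at 0.65 in that fit (95% interval 0.18 to 1.11, edgeR adjusted p = 0.284).

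**Figure D4:**
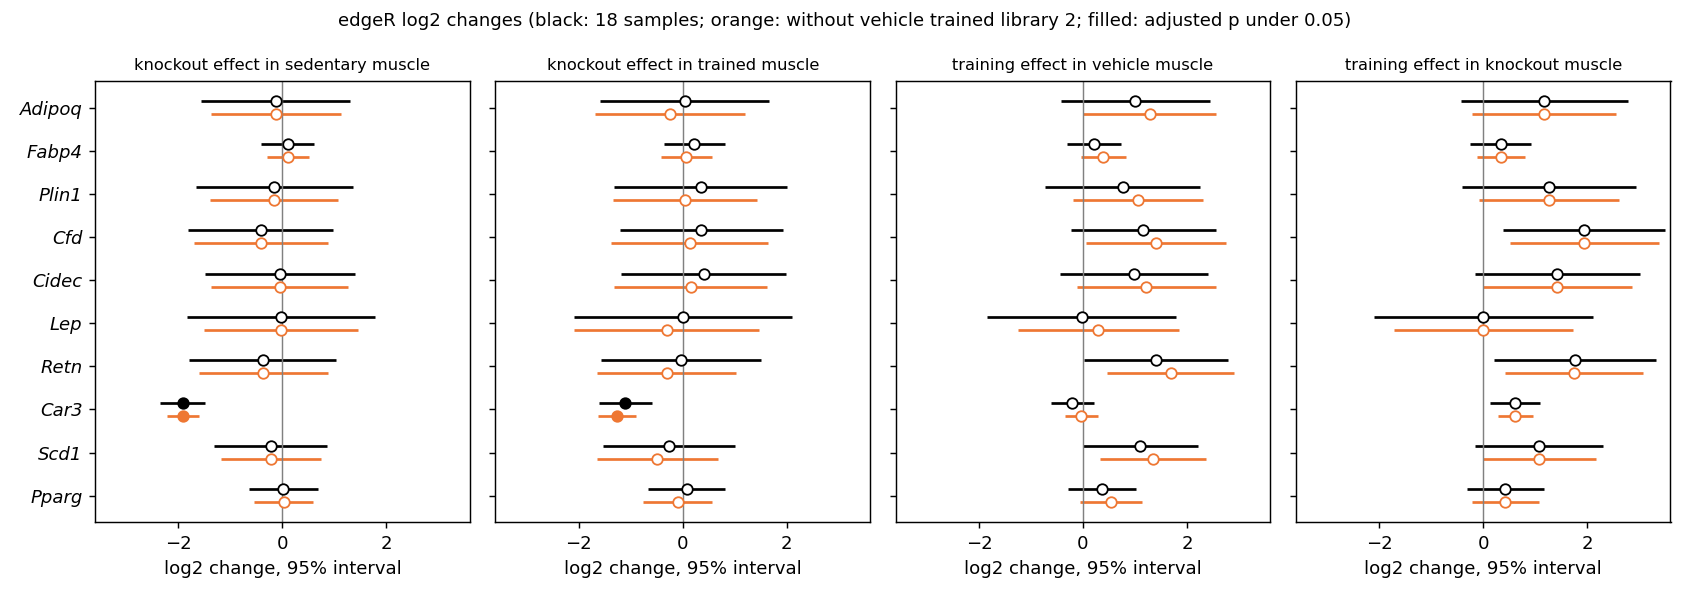
edgeR log2 changes of the 10 genes with 95% intervals in the 4 comparisons (black, 18 samples; orange, without trained vehicle library 2; filled, adjusted p under 0.05). Only the Car3 points of the knockout comparisons are filled, at -1.92 and -1.11 in black and at -1.915 and -1.27 in orange. The intervals of Adipoq span more than 2 log2 units.

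Other genes of the fat cell's pathways were read from lists chosen with results of these data known. The 19 tested other adipocyte genes had a median log2 change of -0.21 in sedentary muscle, against 0.01 over all genes. The most abundant of them, the lipase Lpl, the fatty acid transporter Cd36 and the droplet protein Plin4, averaged 900.0, 331.1 and 322.2 CPM in sedentary vehicle and 681.2, 346.6 and 288.2 CPM in sedentary knockout muscle, and none of these 3 was called.

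Of 12 tested genes of triglyceride synthesis and breakdown, edgeR called 1 in sedentary muscle, which fell, where 2.33% of all genes were called. DESeq2 called 2 of the 12, Dgat2 and Pnpla3, and 537 of 14359 genes in all. Dgat2, which encodes an enzyme of the last step of triglyceride synthesis, stood at 60.1, 95.92, 62.76, 63.8 and 56.94 CPM in sedentary vehicle muscle. In sedentary muscle labelled knockout, Dgat2 stood at 17.98, 21.06, 19.34, 25.46 and 18.29 CPM, with no overlap. Its log2 change was -1.79 (SE 0.35, edgeR adjusted p = 0.00634). In trained muscle 1 of the 12 was called, Acsl1, where 3.29% of all genes were called. Acsl1 encodes an enzyme that activates fatty acids and had a log2 change of 0.77 (SE 0.17, edgeR adjusted p = 0.0195). Acsl1 averaged 182.8 ± 35.5 CPM (SD, n = 5) in trained vehicle and 303.9 ± 35.2 CPM (SD, n = 3) in trained knockout muscle, and the call ended without the knockout trained pair 3 and 5 (0.69, edgeR adjusted p = 0.132) and in a fit of the 2 groups alone (0.77, 0.282).

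The remaining lists held no call in any of the 5 contrasts of the 18 samples: 12 genes of fatty acid synthesis, 14 partners of PPARG such as Rxra, 8 receptors and targets of the secreted products such as Adipor1, and 4 tested genes of brown fat. Neither edgeR nor DESeq2 called any of them. An unadjusted edgeR p under 0.05 was most frequent in a different contrast for each list. For knockout in sedentary muscle it held for 3 of 12 fatty acid synthesis genes, against 9.81% of all genes. For knockout in trained muscle it held for 5 of 14 PPARG partners, against 17.2%. For training in vehicle muscle it held for 2 of 8 receptors and targets, against 15.2%. For the interaction it held for 1 of 4 brown fat genes, against 7.49%. Each list had fewer in its other contrasts, down to 0. Without trained vehicle library 2, further edgeR calls in sedentary muscle included Mlxipl (-0.61), Scd2 (0.52), Pnpla3 (1.45) and Ppargc1a (-0.54), and in trained muscle Pnpla2 (0.68). In the same fit of trained muscle the markers of other cells that were called were Tnni1 of slow fibres (1.45), Mylpf of fast fibres (0.69) and Pi16 of fibro-adipogenic progenitors (-1.15). Ucp1, the heat-producing protein of brown fat, had 33 counts in sedentary vehicle library 3 and 0 in the other 19 libraries.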

How the data were processed

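Total RNA from muscle was extracted with Trizol and an RNeasy kit and sequenced with an Illumina library kit, per the labels' protocols. The submitters' processing notes name Partek, STAR 2.7.8a and DESeq2, and the builds mm10 and GRCm39, with no role given; strandedness was not given in the sources used here. The authors deposited estimated counts per gene under the name of another unit: column totals differ between libraries (10610333 to 19153527), and 72.0% of the values are whole. The depth limits genes of few counts.

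Counts were rounded and near-identical libraries summed. Genes with at least 1 CPM in at least 5 of 20 libraries were kept (14359, all 10 members), normalized by TMM, and tested with edgeR 4.0.16 (R 4.3.3; quasi-likelihood, all groups in 1 fit, Benjamini-Hochberg over all genes, threshold 0.05). Exon lengths came from GENCODE M21, and promoter sequences from RefSeq. The script was checked on simulated data. Alternatives were DESeq2 1.42.0, its size factors, limma 3.58.1 on log2 CPM, other filters, separate libraries, a replicate block, 2 groups alone and leaving out each sample.

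The members and lists were chosen with earlier results of these data known. All members were named; of each list, up to 3 called genes per direction by adjusted p, otherwise up to 3 of the most abundant; and the 10 genes most correlated with Adipoq. Replicate numbers do not pair samples by any label. The values of 1 gene of the list of other adipocyte genes are not reported here.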

Additional observations from a re-analysis of the deposited data

Results flagged for a closer look

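Lep in sedentary vehicle library 4 stood at 19.4 CPM, far above the 0.93 to 4.59 CPM seen in libraries 1, 2, 3 and 5. Its gap to the nearest of them took up most of the whole range. Of 30 sets of a gene in a group of 5 that were examined in this way, 1 stood out, where 1.5 would by chance.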

How the results depend on the processing

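Car3 in sedentary muscle was called in every setting run, with log2 changes from -1.99 to -1.82. In trained muscle the number of the 10 genes called was 0 in a fit of the 2 groups alone and 0 to 1 when samples were left out in turn. For training in muscle labelled knockout it was 1 (Car3) in 2 alternatives chosen after seeing the data: 20 separate libraries without trained vehicle library 2 (0.60, edgeR adjusted p = 0.0249) and DESeq2 without it (0.62, DESeq2 adjusted p = 0.0102). Signs turned for genes that were not called. Adipoq in sedentary muscle stood at 0.19 and 0.24 with limma (pseudocounts 1 and 0.1) and at -0.38 to 0.17 when samples were left out. Scd1 in trained muscle stood at 0.16 with limma at either pseudocount, and at -0.49 to 0.38 when samples were left out. Cidec in trained muscle stood at -0.10 with 20 separate libraries without trained vehicle library 2, and at -0.25 to 1.34 when samples were left out. Adipoq with training in vehicle muscle stood at -0.0024 to 1.31 when samples were left out. The causes were not tested.

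With a replicate block over 20 separate libraries, the number of the 10 called was 1, 1, 0, 0 and 0 in the 5 contrasts, as without it; the numbers pair the samples by no label. Over all genes, 334 were called in sedentary and 473 in trained muscle. These counts were 1002 and 1244 without trained vehicle library 2, 537 and 907 with DESeq2, 1177 and 20 in fits of 2 groups alone, and in trained muscle 1225 with 20 separate libraries (980 with the replicate block). In sedentary muscle 146 were higher and 188 lower, against 177 and 151 with limma. Limma moved the median of all genes for training in knockout muscle to -0.14 and -0.16. Depth limits Lep, Plin1, Retn, Cidec and Pparg, which had under 30 counts in their lowest library.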
